A study of Homo sapiens with 4 samples.

Results

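The genes described here encode the enzymes that bring pyruvate into the mitochondrion, turn the tricarboxylic acid cycle and exchange its carbon with glutamate, aspartate and malate. The set was listed by name from textbook roles, with earlier results of these data known. It comprises 30 genes, all of which were among the 16376 genes of the table and all of which passed the filter on low values (a mean of at least 1 FPKM, met by 10586 genes). FPKM scales the fragments of a gene by its length and by the library total. The cells were LASCPC-01, a human prostate cancer line with neuroendocrine features that was derived in the laboratory from prostate epithelium by introducing MYCN and an active form of AKT1. Its genotype is labelled WT. There were 4 libraries, all labelled day 3: 2 of cells given PBS, the saline control, and 2 of cells given ketotifen, a histamine H1 receptor blocker. The labels give no dose, and the table's columns tell the libraries of a group apart by the letters A and B. All values come from this 1 line, and nothing says whether the libraries of a group were separate cultures, so p-values speak of the spread between libraries, and that spread may be technical.

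As background, the mitochondrial pyruvate carrier imports pyruvate, and the pyruvate dehydrogenase complex converts it to acetyl-CoA, which citrate synthase joins to oxaloacetate. The cycle then oxidises citrate through 2-oxoglutarate, succinyl-CoA, succinate, fumarate and malate back to oxaloacetate, feeding electrons to the respiratory chain. Glutamine carbon enters as 2-oxoglutarate through glutamate, and malate and aspartate carry reducing equivalents between the cytosol and the mitochondrion. The prostate is known for low oxidation of citrate in its normal epithelium, which secretes it.

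The reads recovered from the steps of the deposited values summed to between 31945649 and 35686246 per library. Each enzyme gene held between 613 recovered reads (MPC1) and 27322 (MDH2) in a library. Across genes, PBS library B was the least like the ketotifen libraries (r = 0.9935 and 0.9939 over log2 values, against 0.9962 and 0.9959 for PBS library A). Of the neuroendocrine markers reported here, MYCN (327 to 387 FPKM), NCAM1 (43.9 to 52.0 FPKM) and INSM1 (19.7 to 22.9 FPKM) were present. SYP (0.379 to 0.594 FPKM), CHGA (at most 0.0886 FPKM) and CHGB (at most 0.0818 FPKM) were near 0. ENO2 had 1.601 to 3.10 FPKM. The luminal gene KLK3 (at most 0.272 FPKM) was near 0. Of 9 fibroblast, endothelial and immune markers, only COL1A1 (1.95 to 2.75 FPKM) and CD68 (2.77 to 3.97 FPKM) exceeded 1 FPKM in any library.

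Transcripts of the cycle enzymes were abundant in these cells. The median tested gene had 10.9 FPKM, and the means of all the enzyme genes but PC lay above it. MDH2, the mitochondrial malate dehydrogenase, led with a mean of 327 FPKM over the 4 libraries, ranging from 302 to 362. IDH2, the mitochondrial NADP-dependent isocitrate dehydrogenase, followed with 219 to 237 FPKM, apart from both its neighbours in the order. CS, citrate synthase (158 to 172 FPKM), and GOT2, the mitochondrial aspartate aminotransferase (157 to 161 FPKM), had overlapping ranges. MDH1, the cytosolic malate dehydrogenase (107 to 150 FPKM), SUCLG1, the alpha subunit of succinyl-CoA ligase (93.3 to 99.2 FPKM), and GOT1, the cytosolic aspartate aminotransferase (86.0 to 91.4 FPKM), came next without overlap between them.

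From IDH3G at 69.4 FPKM to DLST at 51.8 FPKM lay 9 genes whose means were close. Within that stretch, the only neighbours whose ranges did not overlap were IDH3B and PDHB. At the lower end, ME2, GLUD1, MPC1, PCK2, ME1 and SUCLG2 overlapped from each to the next, with means from 15.7 to 12.0 FPKM. PC, pyruvate carboxylase, was lowest at 6.56 to 7.35 FPKM and stood apart from SUCLG2. The order of levels and the ratios between genes rest on the gene lengths behind the FPKM values. These were recovered as 6335 bases for PC, 1303 for MPC1 and 868 for PDHA1. Recovery takes the smallest whole numbers, so where a gene's reads and length share a factor, the true values are multiples of those given. For PDHA1, with 4493 annotated exon bases, 868 may thus be a fraction of the true length. In recovered reads PC (1445 to 1689 per library) lay above MPC1 (613 to 785). Partner genes differed widely in level: MPC2 was 3.69 to 4.27 times as high as MPC1, though their proteins form the carrier together. SUCLA2, the ADP-forming beta subunit of succinyl-CoA ligase, was 1.76 to 2.21 times as high as the GDP-forming SUCLG2.

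**Figure D1:**
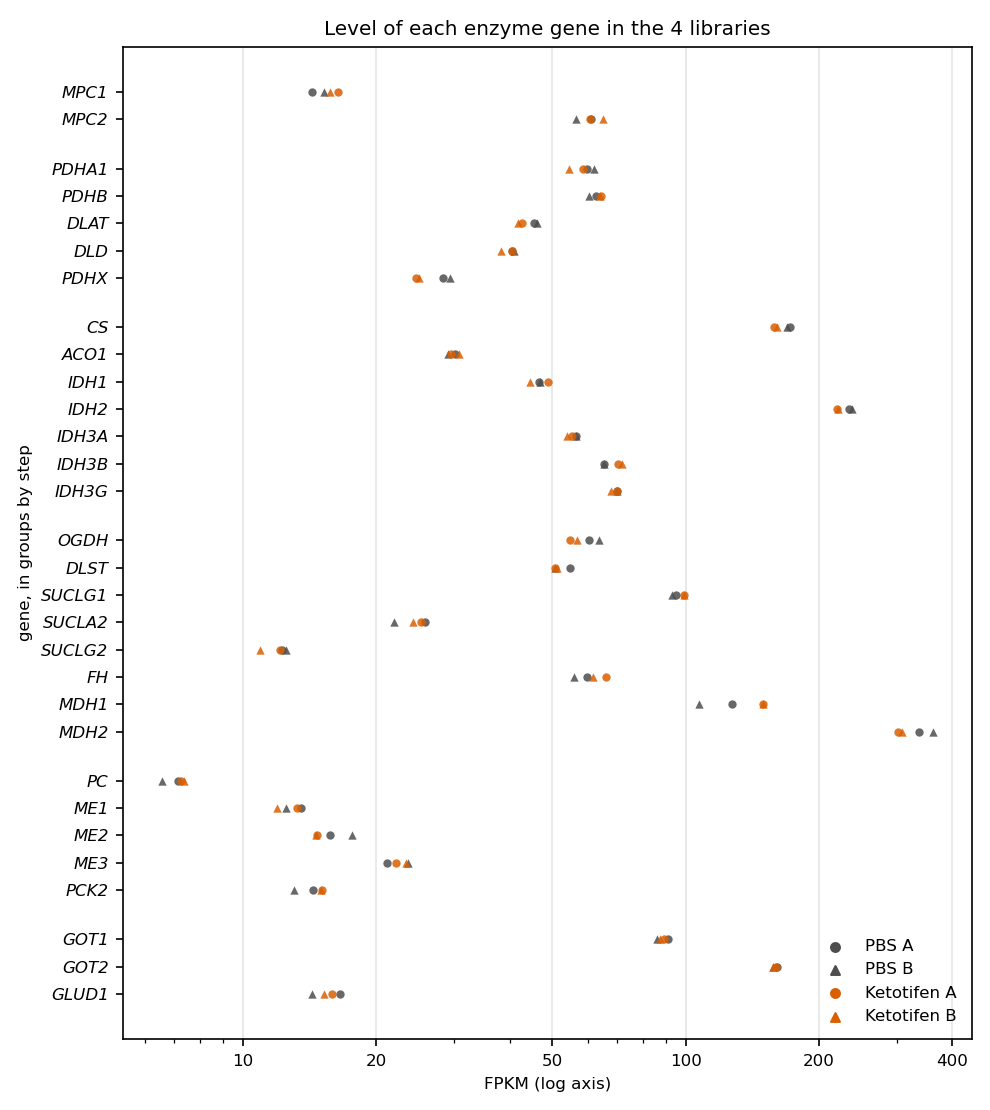
Level of each of the 30 enzyme genes in FPKM (log axis), with grey points for PBS and orange points for ketotifen libraries, circles for library A and triangles for library B, and gaps between the steps of the pathway. The spread between genes, from 7.08 FPKM for PC to 327 FPKM for MDH2, is far wider than the distance between the groups for any gene.

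Differences between ketotifen and PBS were small. As ketotifen minus PBS on log2(FPKM + 1), the median over the 30 genes was -0.0047, beside -0.018 over all tested genes, and the median size was 0.089, beside 0.089 for all. The change was above 0 in 13 genes and below 0 in 17, from -0.21 (PDHX) to 0.35 (MDH1). By limma, with Benjamini-Hochberg adjustment over all tested genes, 0 of the 30 passed an adjusted p of 0.05 in either direction. Over all tested genes 0.00945% were called higher and 0.113% lower. At an unadjusted p under 0.05 by limma there were 6 (MDH1, PDHX, MDH2, OGDH, ME2 and IDH3B), beside 20.4% of all tested genes.

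Voom, limma's method for read counts, was run on the whole reads recovered from the FPKM values and called 3 of the 30. MDH1 was higher and MDH2 and PDHX were lower with ketotifen, where 3.71% of all genes were called higher and 3.95% lower. At an unadjusted p under 0.05 voom had 8 of the 30, beside 24.1% of all. The ketotifen libraries both lay above both PBS libraries in 8 genes (23.2% of all tested genes) and below them in 11 (31.2% of all). In the other 11 the groups overlapped. In bulk RNA, fewer cells of a kind and less RNA per cell cannot be told apart.

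**Figure D2:**
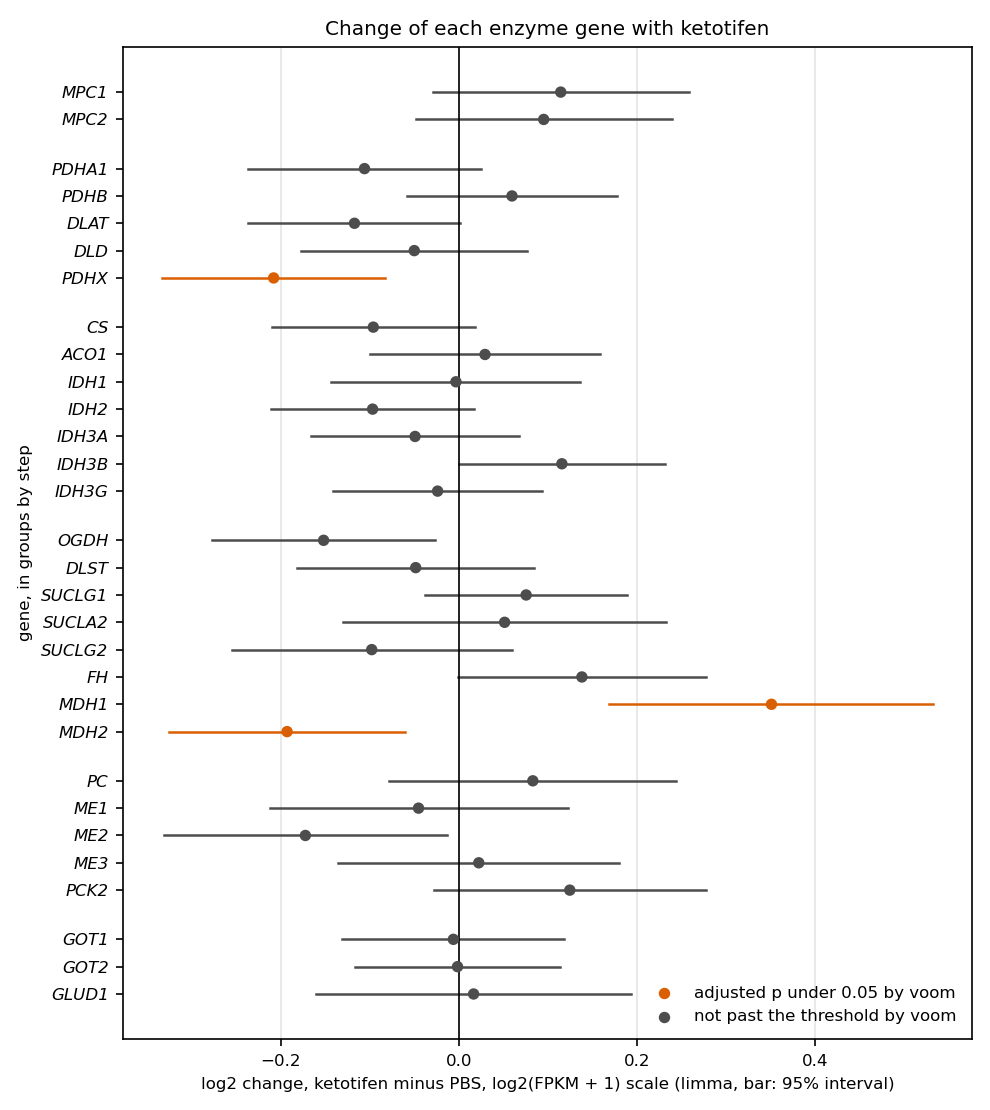
Log2 change of each enzyme gene (ketotifen minus PBS, on log2(FPKM + 1)) with limma's 95% interval as a bar; orange marks the genes with an adjusted p under 0.05 by voom. MDH1 lies farthest to the right at 0.35, while PDHX at -0.21 and MDH2 at -0.19 lie farthest to the left.

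At the entry of pyruvate, neither carrier gene passed a test. MPC1 had 14.3 and 15.3 FPKM in PBS libraries A and B and 16.4 and 15.7 in ketotifen libraries A and B. Both ketotifen values of MPC1 exceeded both PBS values, by a log2 change of 0.11 ± 0.062 (SE; limma adjusted p = 0.337). MPC2 had 61.1 and 56.4 FPKM with PBS against 60.6 and 65.0 with ketotifen, and the groups overlapped.

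The pyruvate dehydrogenase complex has a catalytic E1 made of PDHA1 and PDHB, the transacetylase DLAT, the dihydrolipoamide dehydrogenase DLD and PDHX, which tethers DLD to the core. In 4 of these 5 genes, PDHA1, DLAT, DLD and PDHX, both ketotifen libraries lay below both PBS libraries (31.2% of all tested genes did), and in PDHB they lay above (23.2% did). PDHX had 28.3 and 29.3 FPKM with PBS and 24.6 and 25.0 FPKM with ketotifen. The gap between the groups was wider than the gap within either. Its log2 change was -0.21 ± 0.054 (limma adjusted p = 0.122), and voom put it at -0.22 ± 0.066 (adjusted p = 0.0481). That call was near its threshold and was lost with median ratio library sizes (voom adjusted p = 0.0767). Without PBS library B it was lost too (voom adjusted p = 0.153), as without ketotifen library A (voom adjusted p = 0.465) or B (voom adjusted p = 0.314).

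The other subunits differed by less. DLAT had 45.5 and 46.2 FPKM with PBS and 42.7 and 41.7 with ketotifen (log2 change -0.12 ± 0.052; limma adjusted p = 0.248, voom adjusted p = 0.174). PDHA1 had 59.8 and 62.0 FPKM against 58.5 and 54.6. DLD, which also serves the 2-oxoglutarate dehydrogenase complex, had 40.6 and 40.9 FPKM against 40.4 and 38.2, a difference of the size seen between the ketotifen libraries. PDHB had 62.7 and 60.5 FPKM against 64.4 and 64.0. The ratio of PDHX to PDHB was 0.452 and 0.484 with PBS and 0.382 and 0.390 with ketotifen.

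The complex is switched off when the kinases PDK1, PDK2 and PDK3 phosphorylate E1 and switched on when the phosphatases PDP1 and PDP2, with the regulatory subunit PDPR, remove the phosphate. All 6 of these regulators had both ketotifen libraries below both PBS libraries, where 31.2% of all tested genes did, with a median log2 change of -0.12. PDK1 had 12.9 and 11.4 FPKM with PBS and 9.60 and 7.65 with ketotifen, or 78.9% and 62.9% of the PBS mean. The ketotifen libraries differed from each other by more than the PBS libraries did. Its log2 change was -0.46 ± 0.104 by limma (adjusted p = 0.103) and -0.50 ± 0.091 by voom (adjusted p = 0.00264). Without ketotifen library B the voom change was -0.34 (adjusted p = 0.0889).

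The remaining regulators did not pass in either test and stood closer to the control. PDK2 had 7.84 and 8.002 FPKM with PBS and 7.31 and 7.10 with ketotifen, and PDP2 had 9.45 and 9.62 against 9.09 and 8.56. PDK3 had 3.05 and 3.404 FPKM against 2.79 and 2.86, PDP1 2.75 and 2.82 against 2.66 and 2.40, and PDPR 4.96 and 5.06 against 4.46 and 4.57. Their ketotifen values were thus between 86.3% and 95.5% of the PBS mean, for kinases and phosphatases alike. PDK4 was not analysed here.

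**Figure D3:**
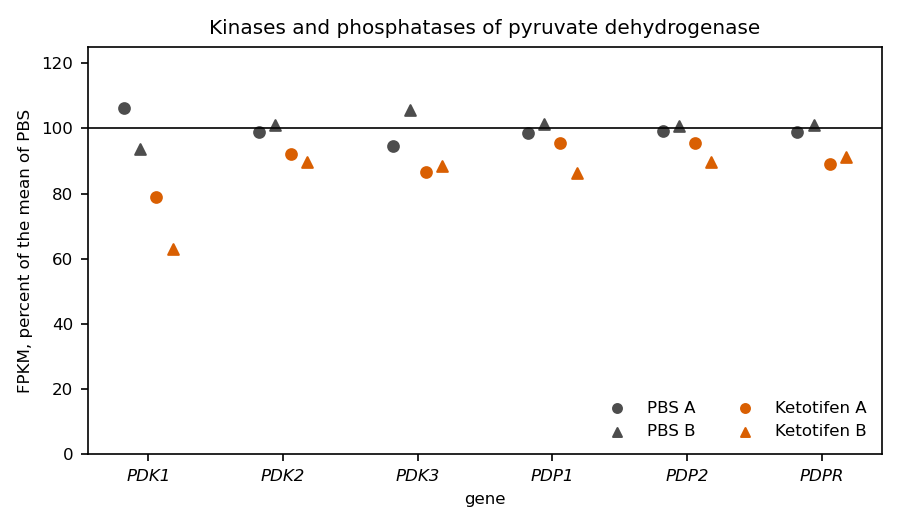
FPKM of the 6 kinases, phosphatases and phosphatase subunit of the pyruvate dehydrogenase complex in each library, as percent of the gene's mean in PBS (horizontal line at 100), with circles for library A and triangles for library B. Every orange ketotifen point lies below the grey PBS points of its gene, farthest for PDK1 at 78.9% and 62.9%.

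From citrate to 2-oxoglutarate, 0 of the 7 genes passed in limma or voom. At an unadjusted p under 0.05 there was 1 by limma (IDH3B) and 1 by voom (IDH2), beside 20.4% and 24.1% of all tested genes. CS had 172 and 169 FPKM with PBS and 158 and 160.5 with ketotifen. IDH2 had 233 and 237 FPKM against 219 and 220.5. In both genes the groups were apart and the libraries within a group close, with log2 changes of -0.096 ± 0.049 (limma adjusted p = 0.313) and -0.097 ± 0.050 (limma adjusted p = 0.310). ACO1, the cytosolic aconitase that also binds iron-responsive RNA elements, had 30.1 and 28.99 FPKM against 29.6 and 30.8. IDH1, the cytosolic and peroxisomal NADP-dependent isocitrate dehydrogenase, had 46.6 and 47.0 FPKM against 48.9 and 44.5, and both genes overlapped between groups.

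The NAD-dependent isocitrate dehydrogenase of the cycle is built from IDH3A, IDH3B and IDH3G. IDH3B had 65.5 and 65.3 FPKM with PBS and 70.2 and 71.7 with ketotifen (log2 change 0.12 ± 0.050; limma adjusted p = 0.245). IDH3A, the catalytic subunit, had 56.6 and 56.4 FPKM against 55.2 and 53.9, and IDH3G had 69.9 and 70.1 against 70.0 and 67.7. The ratio of IDH3A to IDH3B was 0.864 in both PBS libraries and 0.787 and 0.752 with ketotifen. Of the 6832 annotated exon bases of IDH3A, 38.9% also lie in exons of ACSBG1 or CIB2 on the opposite strand. The length recovered from its FPKM values was 2935 bases, so the share in the authors' gene model is not known. Such shares were 22.5% for MPC2, 21.3% for PDHA1 and 19.3% for GOT1. Use of the strand in counting is not given in the sources used here. The mRNA kit was stranded, but whether reads of such neighbours were counted with these genes is therefore not known.

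From 2-oxoglutarate to oxaloacetate came the highest and one of the lowest changes of the set, both in malate dehydrogenases. MDH1 had 127 and 107 FPKM in PBS libraries A and B and 149.6 and 149.2 in the ketotifen libraries. The ketotifen libraries were nearly equal and above both controls, which differed from each other by -0.25 on the log2 scale (B minus A). The log2 change was 0.35 ± 0.079 (95% interval 0.17 to 0.53; limma adjusted p = 0.102) and voom gave 0.35 ± 0.064 (adjusted p = 0.00234), a difference of 27.3% between the means. A fit that leaves out a library has 1 library in that group, which is assumed to vary like the other group, so its p rests on the spread of the group left whole. Voom called MDH1 in each of these 4 fits, with the change at 0.23 without PBS library B and 0.48 without PBS library A. Limma called it without PBS library A (adjusted p = 1.58e-07) and without PBS library B (adjusted p = 0.00889), where the spread is that of the nearly equal ketotifen libraries, and not without either ketotifen library (adjusted p = 0.348 without A and 0.273 without B).

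MDH2 went the other way. It had 336 and 362 FPKM with PBS and 302 and 308 with ketotifen, again with the ketotifen libraries close together and the controls farther apart. The log2 change was -0.19 ± 0.057 (limma adjusted p = 0.148) and -0.19 ± 0.048 by voom (adjusted p = 0.0178). Voom kept the call without PBS library A or B and lost it without ketotifen library A (adjusted p = 0.440) or B (adjusted p = 0.262). Limma called it without PBS library A (adjusted p = 0.000283). The ratio of MDH1 to MDH2 was 0.379 and 0.296 with PBS and 0.495 and 0.484 with ketotifen. The log2 difference in this ratio was 0.54, or 0.37 without PBS library B and 0.73 without PBS library A. For both genes PBS library B lay farther from the ketotifen libraries than PBS library A, as it did over all genes, and its part in the size of these changes is what the values without it show.

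In RefSeq on GRCh38.p14, MDH1 lies on chromosome 2 (63588963 to 63607197, plus strand), MDH2 on chromosome 7 (76048106 to 76067508, plus strand) and PDHX on chromosome 11 (34915920 to 34996128, plus strand). In GENCODE, MDH1 shares 191 of its 4990 exon bases with WDPCP and PDHX 259 of its 3760 with APIP, each on the opposite strand. The lengths recovered from their FPKM values were 1535 and 2659 bases, so the shares in the authors' gene model are not known. MDH2 shares 0 exon bases with another gene.

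**Figure D4:**
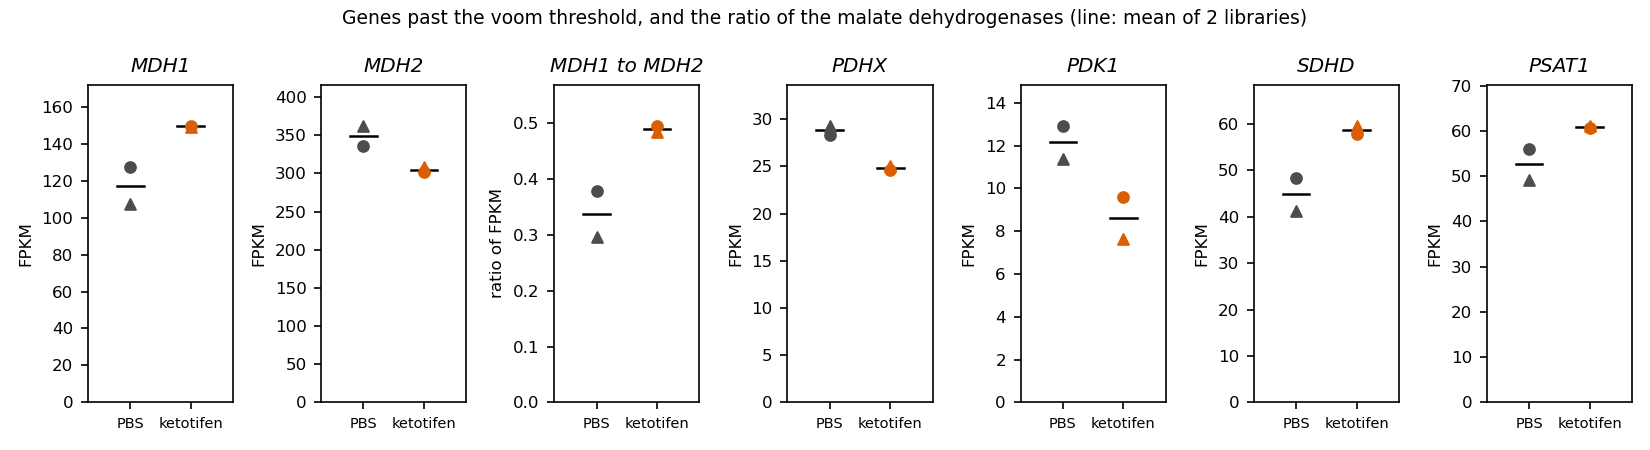
FPKM in each library, from 0, for the 6 genes of the members and related lists that passed the voom threshold, and the ratio of MDH1 to MDH2, with circles for library A, triangles for library B and a line at the mean of the 2 libraries. MDH1, SDHD and PSAT1 are higher and MDH2, PDHX and PDK1 lower with ketotifen. In all of these genes but PDK1 the PBS libraries are farther apart than the ketotifen libraries.

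The other enzymes of this stretch did not pass in either test. OGDH, the E1 of the 2-oxoglutarate dehydrogenase complex, had 60.6 and 63.6 FPKM with PBS and 54.7 and 56.8 with ketotifen, a log2 change of -0.15 ± 0.054 (limma adjusted p = 0.190, voom adjusted p = 0.0670). Its partner DLST had 54.8 and 50.6 FPKM against 50.6 and 51.2, with overlap. OGDHL, a related gene for the same step, had 31.4 and 32.2 FPKM against 33.7 and 32.7. The ratio of OGDHL to OGDH was 0.519 and 0.507 with PBS and 0.616 and 0.575 with ketotifen.

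FH, fumarase, had 59.9 and 56.0 FPKM with PBS and 66.1 and 61.7 with ketotifen (log2 change 0.14 ± 0.060; limma adjusted p = 0.246, voom adjusted p = 0.148). Library A exceeded library B in each group by about the same step, and the groups did not overlap. Of the succinyl-CoA ligase genes, SUCLG1 had 94.8 and 93.3 FPKM against 99.1 and 99.2, SUCLG2 12.3 and 12.5 against 12.1 and 10.9, and SUCLA2 25.8 and 21.998 against 25.3 and 24.2. SUCLG1 was thus above and SUCLG2 below the control in all libraries, and SUCLA2 overlapped.

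Succinate dehydrogenase, which links the cycle to the respiratory chain as complex II, was outside the 30 genes and was read from a list of 9 other cycle enzymes. Of these, 0 passed in limma, and SDHD alone had an unadjusted p under 0.05 by it, beside 20.4% of all tested genes. Voom called 1 higher, where 3.71% of all genes were called higher. SDHD, a membrane anchor, had 48.4 and 41.3 FPKM with PBS and 57.9 and 59.6 with ketotifen (log2 change 0.39 ± 0.076; limma adjusted p = 0.0968, voom adjusted p = 0.00291). With a library left out, the voom change ran from 0.28 to 0.51 on the log2 scale. SDHC, the other anchor, had 63.2 and 57.7 FPKM against 63.1 and 62.6, SDHB 168 and 143 against 149 and 162, and SDHA 90.0 and 81.5 against 88.9 and 86.5. These 3 overlapped between groups. SDHD has 3 pseudogenes named after it and shares 11.2% of its exon bases with AP002884.3 on the same strand, so its reads may be split or joined by the authors' counting.

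Among the genes that refill the cycle or draw malate and oxaloacetate from it, 0 of 5 passed in limma or voom. ME2 alone had an unadjusted p under 0.05 by each, beside 20.4% and 24.1% of all tested genes. ME2, the mitochondrial NAD-dependent malic enzyme, had 15.7 and 17.7 FPKM with PBS and 14.7 and 14.6 with ketotifen (log2 change -0.17 ± 0.069; limma adjusted p = 0.218, voom adjusted p = 0.0659). The ketotifen libraries were together, and PBS library B stood above PBS library A by 0.16 on the log2 scale, about the size of the change. The limma change was -0.25 without PBS library A (adjusted p = 0.0166) and -0.094 without PBS library B (adjusted p = 0.568).

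The NADP-dependent malic enzymes overlapped between groups. ME1, in the cytosol, had 13.5 and 12.5 FPKM against 13.2 and 11.9, and ME3, in the mitochondrion, had 21.2 and 23.7 against 22.2 and 23.3. The ratio of ME3 to ME2 was 1.35 and 1.34 with PBS and 1.505 and 1.597 with ketotifen. This holds for FPKM, where the recovered length was 9031 bases for ME2 and 2642 for ME3. In reads ME2 (4457 to 5541 per library) exceeded ME3 (1840 to 2172). PC, which makes oxaloacetate from pyruvate, had 7.14 and 6.56 FPKM against 7.26 and 7.35. PCK2, which turns oxaloacetate into phosphoenolpyruvate, had 14.4 and 13.1 FPKM against 15.1 and 15.0, and both lay above the control in all libraries without passing (limma adjusted p = 0.526 and 0.327).

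The enzymes that connect the cycle to glutamate and aspartate had the smallest median size of change of the 6 groups of steps, 0.0061 on the log2 scale. GOT1 had 91.4 and 86.0 FPKM with PBS and 89.1 and 87.5 with ketotifen, a log2 change of -0.0061 with a 95% interval of -0.13 to 0.12. GOT2 had 160.5 and 157.1 FPKM against 160.2 and 157.1, and its interval ran from -0.12 to 0.11. GLUD1, glutamate dehydrogenase, had 16.6 and 14.3 FPKM against 15.9 and 15.3, with an interval of -0.16 to 0.19. All 3 overlapped between groups, and the ratio of GOT1 to GOT2 was 0.558 ± 0.016 with PBS and 0.556 ± 0.00049 with ketotifen (SD, n = 2 libraries each). GLUD1 has 5 and GOT2 4 annotated pseudogenes that could take up some of their reads.

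Of the 12 listed genes of glutamine and glutamate use, 11 were tested, GLUD2 being below the filter. Of these, 0 passed in limma, and PSAT1 alone had an unadjusted p under 0.05 by it, beside 20.4% of all tested genes. Voom called 1 higher, where 3.71% of all genes were called higher. Both ketotifen libraries lay above both PBS libraries in 7 (23.2% of all tested genes did). They lay below in 2, GLUL and SLC38A1 (31.2% of all tested genes did). PSAT1, the aminotransferase of serine synthesis that turns glutamate into 2-oxoglutarate, had 56.1 and 49.2 FPKM with PBS and 60.6 and 61.1 with ketotifen (log2 change 0.21 ± 0.068; limma adjusted p = 0.168, voom adjusted p = 0.0446). The voom change was 0.31 without PBS library A (adjusted p = 6.08e-05) and 0.12 without PBS library B (adjusted p = 0.359), and the call was lost without either ketotifen library too. GLS2, a glutaminase, had 19.2 and 18.4 FPKM against 20.2 and 20.5 without passing in either test. SLC1A5, which imports glutamine, had 74.8 and 69.5 FPKM against 75.4 and 75.8, and PYCR1, which makes proline, had 180 and 163 against 181 and 183.

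The mitochondrial carriers of cycle intermediates and of the malate-aspartate shuttle had log2 changes above 0 in 6 of 6 tested genes, from 0.037 to 0.18, with a median of 0.072. In 4 of the 6 both ketotifen libraries lay above both PBS libraries (23.2% of all tested genes did), and 0 passed in limma or voom. Beside 20.4% and 24.1% of all tested genes, 1 had an unadjusted p under 0.05 in each. This was SLC25A10, the dicarboxylate carrier, at 61.8 and 58.7 FPKM in PBS and 67.0 and 70.0 FPKM in ketotifen libraries (voom adjusted p = 0.0506, limma adjusted p = 0.150). With median ratio library sizes voom called it higher (adjusted p = 0.0381). SLC25A11, the malate and 2-oxoglutarate carrier, had 73.2 and 69.6 FPKM against 79.0 and 75.4, and SLC25A1, the citrate carrier, had 84.0 and 76.1 against 85.6 and 83.3.

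Genes that use citrate or acetyl-CoA outside the cycle stayed near the control. Of 4 tested, 0 passed in limma or voom and 0 had an unadjusted p under 0.05 by either. ACLY, which splits exported citrate, had 90.3 and 85.8 FPKM with PBS and 85.3 and 86.0 with ketotifen. ACACA, which carboxylates acetyl-CoA for lipid synthesis, had 20.4 and 20.2 FPKM against 19.97 and 19.7, and ACSS1, a mitochondrial acetyl-CoA synthetase, had 18.3 and 18.4 against 18.1 and 17.2. Of 4 tested genes that attach lipoate or biotin to these enzymes, 0 passed and 0 had an unadjusted p under 0.05 by either tool. LIAS, lipoate synthase, had 4.89 and 4.66 FPKM against 5.17 and 4.96, while LIPT1 (1.97 to 2.59 FPKM) and HLCS (1.42 to 1.601 FPKM) overlapped.

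By place in the cell, 5 of the genes encode cytosolic proteins (ACO1, IDH1, MDH1, ME1 and GOT1), 24 mitochondrial ones, and FH serves both compartments. Of the cytosolic genes, MDH1 alone had groups apart, with ketotifen higher. Of the mitochondrial genes, 6 were apart with ketotifen higher and 11 with ketotifen lower. Over all tested genes these shares were 23.2% and 31.2%. The median log2 change was -0.0032 over the cytosolic and -0.036 over the mitochondrial genes, and no test was made between them.

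The stretches before the start sites of 4 genes are printed as examples and do not stand for the set. Those of MDH2 and PDHX hold only 46 and 72 of the 250 bases searched. MDH2 and PDHX are the genes voom called lower. PDHB and ME3 are the only ones of the 29 members with a window that hold the E-box CACGTG, the motif bound by MYC family proteins, within 250 bases before a RefSeq start. Each stretch lies outside annotated exons, is written on the strand of its gene from RefSeq (GRCh38.p14), and has the E-box and CCAAT (read as ATTGG on the other strand) in capitals.
MDH2, chr7:76048005-76048050, plus strand: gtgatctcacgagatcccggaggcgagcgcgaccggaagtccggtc
PDHX, chr11:34916500-34916571, plus strand, before a start inside the gene: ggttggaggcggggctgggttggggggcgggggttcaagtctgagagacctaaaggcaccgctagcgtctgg
PDHB, chr3:58433858-58434082, minus strand: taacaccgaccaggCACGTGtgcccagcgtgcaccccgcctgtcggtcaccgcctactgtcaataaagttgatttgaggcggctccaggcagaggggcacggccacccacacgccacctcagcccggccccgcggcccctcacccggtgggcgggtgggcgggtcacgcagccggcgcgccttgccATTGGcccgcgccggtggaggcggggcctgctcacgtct
ME3, chr11:86672637-86672866, minus strand: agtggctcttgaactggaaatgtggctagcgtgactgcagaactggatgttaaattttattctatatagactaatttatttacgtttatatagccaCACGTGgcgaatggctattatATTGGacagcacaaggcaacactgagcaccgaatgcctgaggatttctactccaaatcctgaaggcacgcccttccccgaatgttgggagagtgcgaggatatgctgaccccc

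The windows of 29 members were matched, and that of OGDH was not analysed here. On either strand, CACGTG was found in 2 of the 29 (6.90%), in 11.7% of 8678 tested genes with a window and in 7.73% of all 27305 genes. ACGTG, which CACGTG contains and which is the core of hypoxia response elements, was found in 8 (27.6%), against 29.8% of tested genes and 21.7% of all genes. GCGTG, the other form of that core, was found in 20 (69.0%), against 55.0% and 36.2%, and CCAAT, the motif of nuclear factor Y, in 17 (58.6%), against 42.8% and 37.0%. The members' windows had a median G and C content of 68.7%, beside 64.8% in tested genes, and a median of 21 CG pairs in both. Among the genes called by voom, MDH1 held CCAAT, PDHX held CCAAT and both forms of the hypoxia response core outside the stretch printed, and MDH2 held none of the 4 motifs. A match is a run of letters in this window and not a bound site.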

How the data were processed

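RNA of LASCPC-01 cells was measured in 4 libraries, 2 PBS and 2 ketotifen. Per the labels' protocols, total RNA went into a stranded mRNA kit with paired-end sequencing. Of tools, the submitters' processing notes list HISAT2, HTSeq and fastp, and of builds GRCh38. Their roles and versions are not given there. The authors deposited one FPKM value per gene and library. The sources used here do not give the gene annotation or the scaling total. Column letters A and B were not matched to the labels' replicate numbers, and the labels name no batch.

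Differences were tested two-sided on log2(FPKM + 1) with limma 3.58.1 and its trend (R 4.3.3). Genes needed 1 FPKM on average, with Benjamini-Hochberg adjustment over all 10586. Log2 changes on this scale understate those of low genes. The FPKM values are whole multiples of 1 read, so whole reads were recovered (Python 3.11.15) for 99.9% of tested genes (10580), within 0.05 reads, and for 0 of 300 decoys. Where a common factor remains, the true reads are a multiple of these, and the true gene length is a multiple of the one recovered. Voom ran on these reads, summing to between 31945649 and 35686246 per library, with a median of 1524 per gene. It called 392 genes higher and 418 lower, or 431 and 256 with median ratio library sizes. An exact permutation test of 2 against 2 libraries cannot go below p = 0.333, so none was made.

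Members and related lists were chosen with earlier results of these data known. Named genes were all 30 members, related genes called by either tool, the 3 highest of each related list, and markers; some genes this rule takes are not reported here. PDK3, PDP1, PDPR, OGDHL, SDHC, GLS2 and the ratios between genes were chosen after their values were seen. Of 46 related genes, 44 were in the table and 40 were tested. Exon overlaps are from GENCODE 29.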

Additional observations from a re-analysis of the deposited data

How the results depend on the processing

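The settings were pseudocounts (0.1 and 5), filters, scalings, single libraries left out, the letter block and voom. The genes were the members and PDK1, SDHD and PSAT1, the related genes that voom had called. Of 429 combinations of gene and setting, 386 kept direction and side of the threshold, 22 gained a call and 21 reversed. The 22 include calls of PDK1, SDHD and PSAT1, among them those by voom, so they are not the members' alone. Since limma called 0 of the members and 0 of the related genes, no call could be lost. The 20 members whose direction held in every setting include MDH1, MDH2 and PDHX. By limma, 0 members were called higher and 0 lower. With 1 library left out this was 0 to 2 higher and 0 to 4 lower, most without PBS library A (2 and 4), and by voom 1 and 2. Voom with 1 library left out called 1 to 2 members higher and 0 to 5 lower, again most without PBS library A, and with median ratio library sizes, added after seeing the data, 1 lower. Of related genes limma called 0 in either direction (0 to 4 higher and 0 to 1 lower with 1 library left out), and voom called 2 higher (1 to 4; 3 with median ratio library sizes) and 1 lower (0 to 2). With the column letter as a replicate block limma called 1 member higher (MDH1, adjusted p = 0.0133) and 0 lower, and 1 related gene higher and 1 lower. The letters are not known to pair libraries, and the correlation of B minus A between groups was 0.102. Over all genes limma called 1 higher and 12 lower, 1061 and 875 leaving out PBS library A, 254 and 167 leaving out PBS library B, 406 and 231 with the block, 15 and 12 under the filter at 5 FPKM, 1 and 2 after median ratio scaling or quantile normalization, and 0 with no filter (2295 at an unadjusted p under 0.05).

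The members' median of -0.0047 became 0.015 after median ratio scaling, -0.056 after equal sums of FPKM and -0.042 after quantile normalization, and ran from -0.047 to 0.0071 with 1 library left out. The genes that reversed all had main changes of at most 0.051 in size. After median ratio scaling IDH1 was at 0.016, GOT1 at 0.014 and GOT2 at 0.018. After equal sums ACO1 was at -0.021, ME3 at -0.028 and GLUD1 at -0.032. With 1 library left out IDH1 ran from -0.070 to 0.063, IDH3G from -0.048 to 0.00041, DLST from -0.10 to 0.0080, SUCLA2 from -0.060 to 0.16, ME1 from -0.11 to 0.024, ME3 from -0.054 to 0.098, GOT1 from -0.050 to 0.037, GOT2 from -0.017 to 0.014 and GLUD1 from -0.083 to 0.12. The cause was not tested. Precision is limited by 2 libraries per group and, for the genes with fewest reads such as MPC1 (613 to 785 per library), also by read number.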
